A study of Mus musculus with 22 samples.

Results

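The 47 genes described here are the other phase I and phase II enzymes of the mouse kidney: cytochrome P450 genes of the Cyp1, Cyp2 and Cyp4f groups, flavin-containing monooxygenases (Fmo), carboxylesterases (Ces), glutathione S-transferases (Gsta, Gstm, Gstp, Gstt) and sulfotransferases (Sult). They were chosen by symbol, with Cyp2j genes, Cyp2c23 (also named Cyp2c44), Cyp2d12 and Ces1g left out, and each is read from its brightest probe set that carries a single gene symbol. A mean log2 expression of at least 5.2 over all arrays was required. Of 105 genes with a matching symbol, 47 reached that floor and 58 did not, out of 19938 genes with such a probe set on the array. The members just inside the floor were Ces1b at 5.25, Sult5a1 at 5.27 and Cyp2w1 at 5.32, and those just outside were Ces3a at 5.11, Sult4a1 at 5.04 and Ces1a at 4.93. All 6 Cyp3 candidates lay below it. No probe set carried a Ugt1 symbol alone. A further 14 probe sets list several symbols that fit the rule and were left out, 8 of them above the floor, including 4 with Gsta and 2 with Gstp symbols.

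Phase I enzymes add or expose a polar group on a drug, toxin, steroid or lipid, and phase II enzymes then join that group to glutathione, sulfate or glucuronic acid so that the product can be excreted. Cytochrome P450 enzymes oxidise with haem and electrons from the reductase Por, flavin-containing monooxygenases oxidise nitrogen and sulfur centres with a flavin, and carboxylesterases cut ester and amide bonds. In the kidney many of these enzymes are made in the proximal tubule. In liver and kidney, the clock is known to act on them in part through Dbp, Tef and Hlf, transcription factors of the PAR bZIP family that bind D-box elements.

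RNA was measured on 22 Affymetrix whole-transcript arrays of kidney, named by the labels as whole kidney from the left side, from wild-type mice (WT) and mice lacking Clock, labelled clock(-/-) and called KO below. Clock and its partner Arntl are the activating transcription factors of the circadian oscillator. Both genotypes came from a colony bred from heterozygous pairs, were kept for 2 weeks under 12 h of light and 12 h of dark, and then spent 30 h in constant darkness. Kidneys were taken every 4 h at 6 zeitgeber times (ZT0 is lights on and ZT12 lights off), and RNA of 2 or 3 mice was pooled for each array. Each genotype has 11 arrays: 2 pools were arrayed at every time but ZT8 in the WT and ZT16 in the KO, where 1 pool was. Sex, age and litter are not in the labels, and the KO lacks Clock in every tissue. Nothing says how independent the pools are, so pool-to-pool spread may be technical. The p-values of the 24 h wave described below are measured against that spread together with departures of the times from the wave. Those at single times are measured against pool-to-pool spread alone. In a whole-kidney sample, fewer cells of a type and less RNA per cell cannot be told apart.

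Values are log2 RMA expression as deposited. Array medians lay between 5.88 and 6.01, and the brightness of different probe sets does not compare the amounts of different genes. A 24 h wave with its own mean, amplitude and peak time in each genotype was fitted to every gene with limma. A result is called where the p-value, adjusted by Benjamini-Hochberg over all 15589 genes tested, was under 0.05. The difference is that of the 2 cycle means (KO minus WT, log2), and amplitude is the height of the fitted wave from mean to peak (log2). A separate limma fit of the 12 group means gave the difference at each time. The targeted gene, Clock, read 8.47 to 9.16 in the WT (median 8.91) and 8.73 to 9.11 in the KO (median 8.97), a difference of 0.13 ± 0.04 (n = 11 per genotype, adjusted p = 0.0461). Its probe set sums probes along the transcript, and the labels do not say which exons were deleted, so the genotypes rest on the labels alone, and KO stands for the arrays labelled as Clock-deficient.

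Of the 47 enzymes, 7 were higher in the KO, 7 were lower, and 33 passed neither way. Across the 15589 genes, 4.45% were called higher and 3.45% lower, and subtracting each array's median moved that split from 693 higher and 538 lower genes to 1024 and 328, with a shift of 0.03 in the median of all genes. The same step gave 9 higher and 6 lower members. Of the 8 carboxylesterases, 3 were lower and 0 higher, and of the 6 mu-class glutathione transferases, 2 were higher and 0 lower. The P450 genes went both ways (3 of 17 higher, 2 lower), as did the monooxygenases (1 of 4 higher, 1 lower). The median absolute difference was 0.10 among members and 0.06 over all genes, and the median signed difference was 0.0085 among members and -0.0038 over all genes. The 2 sets differ in brightness: all genes tested reach down to a mean of 4.67, and 14002 of them reach the members' floor of 5.2. For 0 members did the KO and WT arrays stay fully apart, against 0.122% of all genes. The 33 genes not called had differences from -0.29 to 0.26, of which 17 were positive, and 10 had an unadjusted limma p under 0.05.

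**Figure D1:**
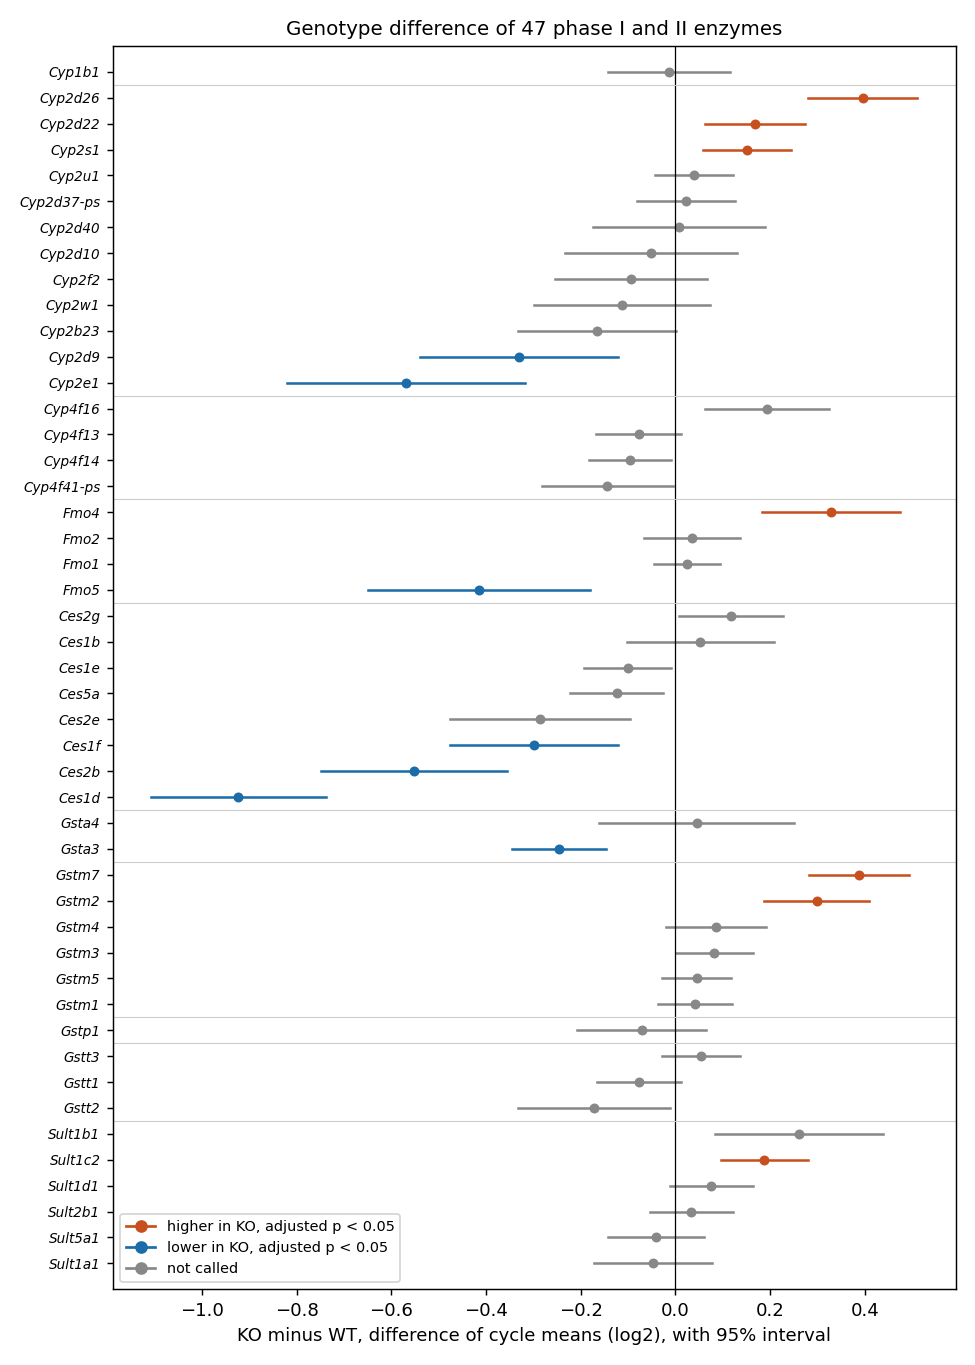
Difference of the cycle means, KO minus WT on the log2 scale, with its 95% interval from the limma fit, for the 47 enzymes grouped by family (11 arrays per genotype). The 7 genes called higher reach from 0.15 for Cyp2s1 to 0.40 for Cyp2d26, and the 7 called lower reach from -0.25 for Gsta3 to -0.92 for Ces1d.

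Among the P450 genes, the brightest member of all, Cyp2e1, was lower in the KO. Cyp2e1 oxidises ethanol, acetone and paracetamol. Its log2 level ran from 12.36 to 13.02 in the WT (median 12.67) and from 10.71 to 12.72 in the KO (median 12.38). The KO pools at ZT20, at 11.46 and 10.71, and 1 KO pool at ZT0, at 11.71, were the lowest, and 5 of 11 KO arrays fell below the whole WT range. The difference was -0.57 ± 0.12 (SE, n = 11 per genotype, fold 0.674, adjusted p = 0.00495). It was -0.38 (adjusted p = 0.017) without both KO ZT20 pools. Within the first pools alone it was -0.54 (adjusted p = 0.00978), and within the second pools -0.63 (adjusted p = 0.54). The promoter of Cyp2e1, from 250 bases before to 50 after the RefSeq start (GRCm38.p6, chr7:140763569-140763868, plus strand), holds 1 CACGTT, an E-box variant, 36 bases before the start; it is shown because this gene had the widest difference at ZT20, and the capitals mark that match.
Cyp2e1: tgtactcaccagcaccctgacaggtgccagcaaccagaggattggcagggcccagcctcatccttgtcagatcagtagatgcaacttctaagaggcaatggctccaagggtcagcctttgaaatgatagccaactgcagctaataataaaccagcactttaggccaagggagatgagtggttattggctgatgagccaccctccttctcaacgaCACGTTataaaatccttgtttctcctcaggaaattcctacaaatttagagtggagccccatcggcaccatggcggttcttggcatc

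Clock and Arntl are known to bind the E-box CACGTG, and CACGTT is a weaker variant. RefSeq windows of this kind were at hand for 37 of the 47 members, in 48 windows, and both strands were searched. CACGTG was in 0 of the 48, against 7.15% of all 32851 windows. CACGTT was in 5 windows (Cyp2e1, Ces2g, Fmo2, Gstm1 and Gstp1), against 4.68% of all. TNGCGTG, the core bound by the Ah receptor, was in 1 window (Sult1d1), against 5.07%. The ROR element and the HNF1 site were each in 0 windows, against 0.219% and 0.0091% of all. A match is a description of letters and not a binding site, and these windows do not hold distant elements.

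The other called Cyp2 genes split by direction within the Cyp2d cluster of chromosome 15. Cyp2d26 was higher, with 11.24 to 12.00 in the KO (median 11.52) against 10.84 to 11.41 in the WT (median 11.18). Of the 11 KO arrays, 9 lay above the whole WT range. The difference was 0.40 ± 0.06 (SE, n = 11 per genotype, fold 1.32, adjusted p = 9.50e-05), positive at all 6 times. Cyp2d22 was higher by 0.17 ± 0.05 (adjusted p = 0.0461), with 8.62 to 8.93 in the KO and 8.29 to 8.82 in the WT. Cyp2d9, a testosterone 16-alpha-hydroxylase known from male mouse liver, was lower by a difference of -0.33 ± 0.10 (adjusted p = 0.0468), with 8.43 to 9.73 in the KO and 9.24 to 9.93 in the WT. For both genes the KO and WT ranges overlapped, and leaving out 1 array ended the call in 15 of 22 fits for each. Cyp2d10, Cyp2d40 and the pseudogene Cyp2d37-ps were not called (-0.05, 0.01 and 0.02). Cyp2d genes are close copies of each other, so probes may share signal between them.

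Cyp2s1, a P450 made mostly outside the liver and inducible through the Ah receptor, was higher by 0.15 ± 0.04 (adjusted p = 0.0418), and its KO arrays (7.52 to 7.97) overlapped those of the WT (7.34 to 7.88). Its call was lost in 13 of 22 fits that left out 1 array. Cyp1b1, an oestrogen- and arachidonate-oxidising P450 and the only Cyp1 gene above the floor, had a difference of -0.01 ± 0.06, with a 95% interval of -0.14 to 0.12. Cyp2u1, a fatty acid hydroxylase, Cyp2f2, Cyp2b23 and Cyp2w1 were not called, with differences from -0.17 for Cyp2b23 to 0.04 for Cyp2u1. The Cyp4f enzymes oxidise the end carbon of fatty acids and leukotrienes. None of the 4 was called: Cyp4f13, the brightest, stood at -0.08 ± 0.04, and the largest difference was 0.19 ± 0.06 for Cyp4f16 (adjusted p = 0.065).

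The flavin-containing monooxygenases Fmo1 and Fmo2 were bright and close between genotypes. Fmo1 had 12.13 to 12.40 in the WT and 12.17 to 12.40 in the KO, a difference of 0.02 ± 0.03, with a 95% interval of -0.05 to 0.10. Fmo4 was higher in the KO, at 8.34 to 9.09 (median 8.75) against 7.74 to 8.83 (median 8.44). The difference was 0.33 ± 0.07 (n = 11 per genotype, fold 1.26, adjusted p = 0.00531), positive at all 6 times, although only 4 KO arrays passed the highest WT array. Fmo5, which inserts oxygen next to ketones, was lower, at 8.16 to 9.47 (median 8.97) against 8.75 to 9.72 (median 9.27). Its difference was -0.42 ± 0.11 (fold 0.75, adjusted p = 0.0251) and became -0.32 (adjusted p = 0.194) without both KO ZT20 pools, which held its lowest values at 8.16 and 8.16.

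The carboxylesterase Ces1d showed the widest genotype difference of the 47. Ces1d hydrolyses triglyceride as well as drug esters. Starting from ZT0, the WT pools read 11.40 and 11.03, then 11.11 and 10.80 (ZT4), 10.91 (ZT8), 11.52 and 11.34 (ZT12), 11.42 and 11.48 (ZT16), and finally 11.50 and 11.46 (ZT20). The KO pools in the same order read 10.45 and 9.97, then 10.04 and 10.19 (ZT4), 10.25 and 10.82 (ZT8), 10.37 and 10.99 (ZT12), 10.20 (ZT16), and 10.06 with 10.18 (ZT20). At each time every KO pool was below every WT pool, and over the day the ranges met through 2 KO pools, of ZT8 and ZT12, that exceeded the lowest WT pool, of ZT4. The difference was -0.92 ± 0.09 (SE, n = 11 per genotype, fold 0.527, adjusted p = 1.45e-06). It was -0.91 (adjusted p = 4.48e-05) without both KO ZT20 pools, -1.08 within the first pools (adjusted p = 0.000266) and -0.70 within the second pools (adjusted p = 0.0306). Leaving out any 1 of the 22 arrays kept the call.

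The remaining carboxylesterases lie with Ces1d on chromosome 8. Ces2b was lower by a difference of -0.55 ± 0.09 (fold 0.682, adjusted p = 0.000743), with 6.31 to 7.38 in the KO (median 7.20) and 7.19 to 7.84 in the WT (median 7.63). Ces1f ran from 10.78 to 12.10 in the KO (median 11.94) and from 11.82 to 12.19 in the WT (median 12.01), so that the medians nearly met and the KO ZT20 pools, at 11.06 and 10.78, stood far below. Its difference of -0.30 ± 0.09 (adjusted p = 0.033) became -0.14 (adjusted p = 0.224) without those pools, and the call was lost in 10 of 22 fits that left out 1 array. Ces1e, known as egasyn, which holds beta-glucuronidase in the endoplasmic reticulum, was at -0.10 ± 0.04 and not called (adjusted p = 0.166). Ces2e was at -0.29 ± 0.09 (adjusted p = 0.0595). Ces2g, Ces5a and Ces1b had differences of 0.12, -0.12 and 0.05, also not called. The Ces1 and Ces2 genes are clusters of close copies, and their probes may share signal.

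D-box elements, the sites of Dbp, Tef and Hlf, were found in the windows of these esterases only. TTATGTAA was in 3 of 48 member windows (Ces1e, and the same site in both windows of Ces1b), against 0.938% of all windows, and TTACGTAA was in 0, against 0.119%. No window was at hand for Ces1d, Ces1f or Ces2b. The Ces1e promoter (GRCm38.p6, chr8:93229570-93229869, minus strand) has the match 81 bases before the start. The window of Ces1b shown with it (chr8:93079891-93080190, minus strand) has it 84 bases before the start, and capitals mark the match in each.
Ces1e: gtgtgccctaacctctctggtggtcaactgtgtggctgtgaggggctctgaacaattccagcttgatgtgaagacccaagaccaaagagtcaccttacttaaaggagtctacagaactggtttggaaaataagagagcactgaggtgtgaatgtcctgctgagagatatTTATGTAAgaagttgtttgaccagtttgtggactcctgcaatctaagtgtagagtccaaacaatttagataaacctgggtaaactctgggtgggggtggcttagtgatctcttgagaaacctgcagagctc
Ces1b: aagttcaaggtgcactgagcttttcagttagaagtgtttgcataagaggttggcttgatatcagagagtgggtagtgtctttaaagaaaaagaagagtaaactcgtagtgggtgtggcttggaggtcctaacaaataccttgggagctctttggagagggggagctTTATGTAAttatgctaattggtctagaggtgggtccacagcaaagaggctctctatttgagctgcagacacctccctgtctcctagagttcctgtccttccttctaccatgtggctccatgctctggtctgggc

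**Figure D2:**
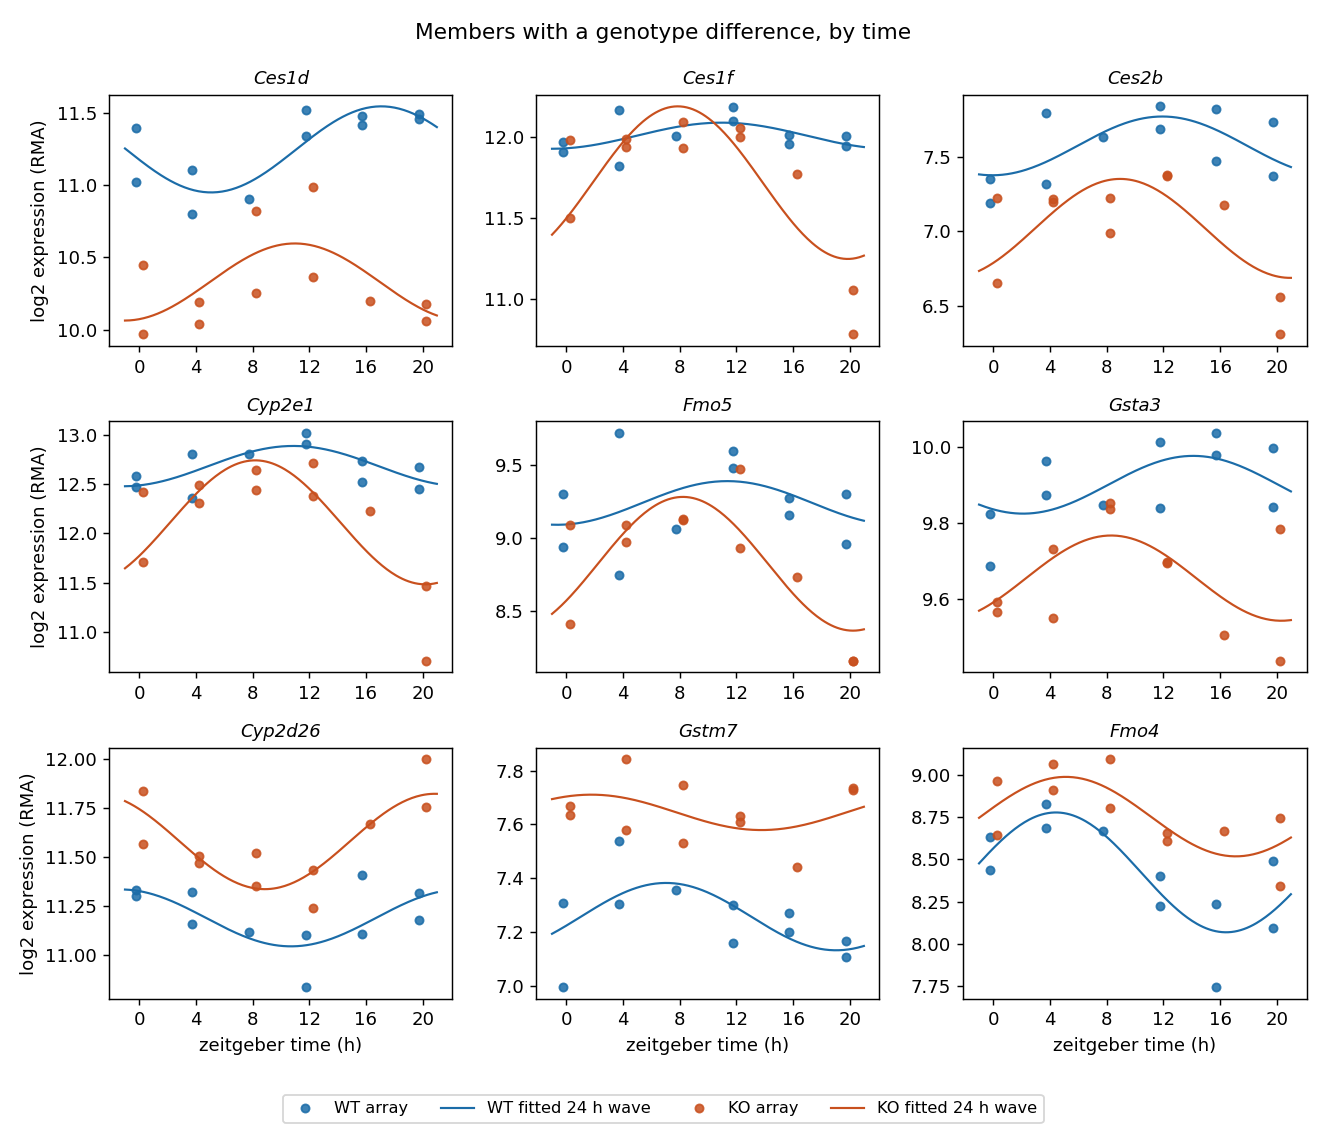
Log2 expression at each zeitgeber time for 9 enzymes with a called genotype difference; points are arrays, and lines are the fitted 24 h waves of the WT and the KO. Ces1d is lower in the KO at all 6 times, whereas Ces1f and Cyp2e1 part most at ZT20, where the KO pools of Cyp2e1 read 11.46 and 10.71.

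Glutathione S-transferases attach glutathione to electrophiles. Gstm7 was higher in the KO, at 7.44 to 7.84 (median 7.63) against 6.99 to 7.54 in the WT (median 7.27), and 9 of 11 KO arrays lay above the whole WT range. Its difference was 0.39 ± 0.05 (SE, n = 11 per genotype, fold 1.31, adjusted p = 4.67e-05). Gstm2 was higher by 0.30 ± 0.05 (fold 1.23, adjusted p = 0.00102), with KO arrays at 8.19 to 8.71 and WT arrays at 7.92 to 8.47. All 6 Gstm differences were positive, and the other 4 (Gstm1, Gstm3, Gstm4 and Gstm5) lay between 0.04 and 0.09 and were not called. A second probe set of Gstm3 gave 0.10 ± 0.07, also not called. The Gstm genes are neighbours on chromosome 3 and near copies of each other, so their values may not be independent.

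Gsta3, the alpha-class enzyme known for conjugating the epoxide of aflatoxin, went the other way. It had 9.44 to 9.85 in the KO (median 9.69) and 9.69 to 10.04 in the WT (median 9.87), with 5 KO arrays below every WT array. The difference was -0.25 ± 0.05 (fold 0.843, adjusted p = 0.00225), and it was -0.28 without both KO ZT20 pools. Gsta4, which removes the lipid peroxidation product 4-hydroxynonenal, was at 0.04 ± 0.10. Gstp1 was at -0.07 ± 0.07, and the theta-class genes Gstt1, Gstt2 and Gstt3 were at -0.08, -0.17 and 0.05, none of them called. TGACNNNGC is the antioxidant response element, the site through which Nrf2 induces many glutathione transferases. It was in 4 of 48 member windows (Cyp4f14, Gsta3, Gstm5 and Gstm7), against 12.4% of all windows. The Gsta3 and Gstm7 promoters are shown because both hold that element and the genes changed in opposite directions. Gsta3 is at chr1:21240335-21240634 on the plus strand with the match 121 bases before the start (GRCm38.p6). The Gstm7 window shown is at chr3:107931565-107931864 on the minus strand with the match 129 bases before its start. The other Gstm7 window (chr3:107931768-107932067) holds 0 matches.
Gsta3: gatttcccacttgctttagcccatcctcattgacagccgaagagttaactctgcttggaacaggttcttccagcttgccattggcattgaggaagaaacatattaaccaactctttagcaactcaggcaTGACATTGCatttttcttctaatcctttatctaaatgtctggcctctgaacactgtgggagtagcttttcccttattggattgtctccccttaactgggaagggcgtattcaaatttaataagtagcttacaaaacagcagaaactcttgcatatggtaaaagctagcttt
Gstm7: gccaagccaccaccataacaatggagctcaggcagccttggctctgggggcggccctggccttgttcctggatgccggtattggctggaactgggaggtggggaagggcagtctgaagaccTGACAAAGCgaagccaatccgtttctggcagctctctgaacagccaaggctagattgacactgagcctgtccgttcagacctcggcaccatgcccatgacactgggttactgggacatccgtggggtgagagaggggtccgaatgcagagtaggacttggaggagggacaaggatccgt

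Sulfotransferases transfer sulfate to phenols, steroids and amines. Sult1c2 was the only one called, higher by 0.19 ± 0.04 (n = 11 per genotype, fold 1.14, adjusted p = 0.0108), with 10.62 to 11.06 in the KO and 10.44 to 10.89 in the WT. Its difference was positive at all 6 times, and 4 KO arrays passed the whole WT range. Sult1d1, which sulfates catecholamines and was the brightest sulfotransferase, stood at 0.08 ± 0.04 (adjusted p = 0.274). Sult1b1, a sulfotransferase of thyroid hormone, stood at 0.26 ± 0.09 (adjusted p = 0.0661). Both lie within 20 Mb of Clock on chromosome 5, where sequence linked to the deleted allele and the loss of Clock cannot be told apart. Sult1a1, the main phenol sulfotransferase, Sult2b1, which sulfates cholesterol, and Sult5a1 were at -0.05, 0.03 and -0.04.

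In the WT, 6 members had a called 24 h rhythm, against 5.16% of all genes, and 16 had an unadjusted p under 0.05, against 21.1% of all genes. Each came from a different family. Cyp1b1 had the clearest wave. Its WT pools went from 8.34 and 8.32 (ZT0) to 8.53 and 8.86 (ZT4) and 8.64 (ZT8), and stood at 8.13 and 8.05 (ZT12), 7.93 and 8.22 (ZT16), and 8.21 with 7.94 (ZT20). The amplitude was 0.34 ± 0.06 (SE) with a peak at ZT 4.91 (adjusted p = 0.00615). In the KO the pools stayed between 8.05 and 8.49, and the amplitude was 0.09 ± 0.06. The test of the difference between the rhythms gave an unadjusted p of 0.000619 and an adjusted p of 0.254, so a change of rhythm was not called.

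Fmo4 peaked close to it, at ZT 4.43, with an amplitude of 0.35 ± 0.07 (adjusted p = 0.0106), and the KO wave was at 0.23 ± 0.07 with a peak at ZT 5.12. The KO pools of Fmo4 thus ran above those of the WT at most times with a similar peak time. Cyp2s1 peaked at ZT 7.24 in the WT (0.24 ± 0.05, adjusted p = 0.0106), with a KO amplitude of 0.10 ± 0.05. Gstm4 peaked at ZT 7.04 (0.24 ± 0.05, adjusted p = 0.0261) and Gstt2 at ZT 8.87 (0.36 ± 0.08, adjusted p = 0.028). For both, the KO amplitudes of 0.14 and 0.30 came with peaks within 2 h of the WT peak. Sult1a1 peaked last, at ZT 11.9 (0.27 ± 0.06, adjusted p = 0.0218). All 6 WT peaks thus fell between ZT 4.43 and ZT 11.9, in the subjective day. The WT waves of Ces1d (0.30 ± 0.09, peak ZT 17.1, adjusted p = 0.107) and Ces2e (0.27 ± 0.09, adjusted p = 0.201) were of similar size and were not called. Leaving out the single WT pool at ZT8 left 3 of the 6 calls, and fits within the first or the second pools alone called 0, with 13 and 11 members at an unadjusted p under 0.05. Over all genes, WT rhythms numbered 804 with all arrays and 553 without that ZT8 pool. They numbered 53 within the first pools and 6 within the second. Cyp1b1 and Fmo4 kept their calls in all 22 fits that left out 1 array.

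**Figure D3:**
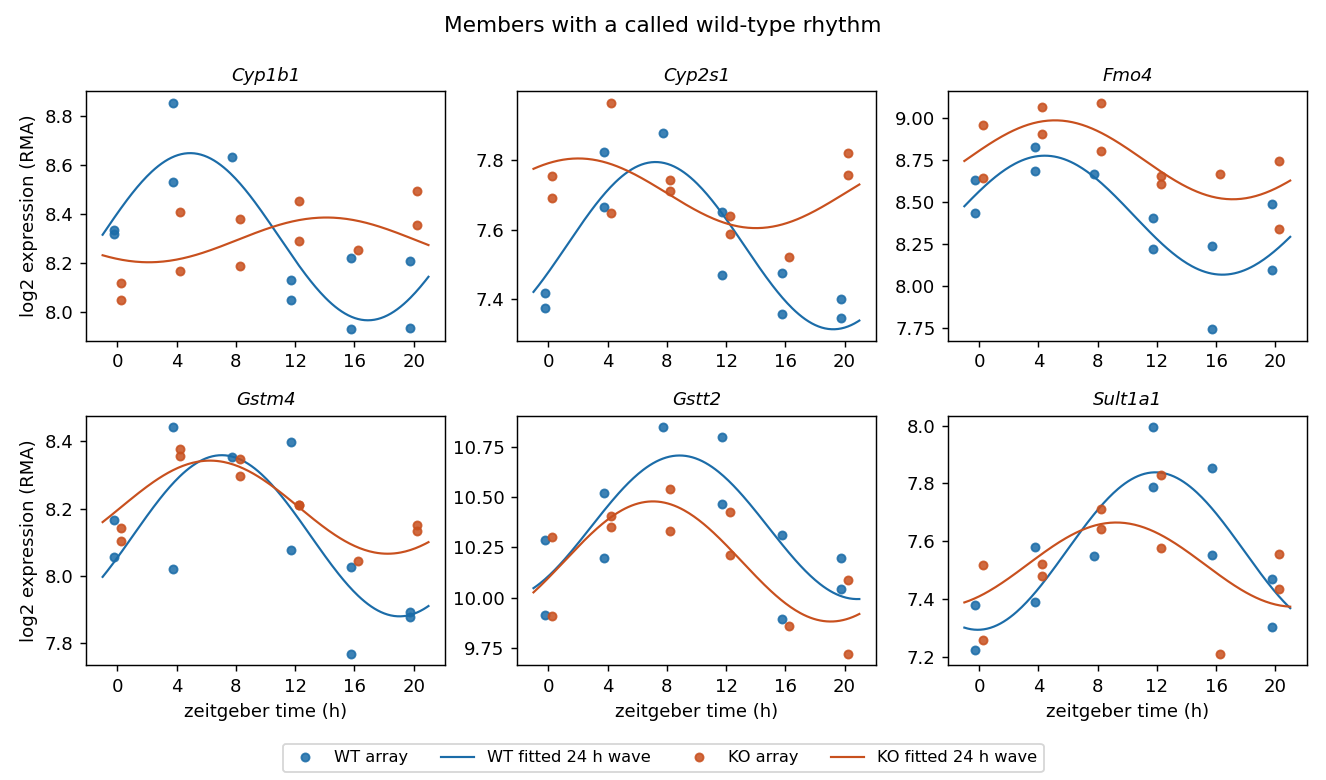
Log2 expression by zeitgeber time for the 6 enzymes with a called rhythm in the WT; points are arrays and lines the fitted 24 h waves of each genotype. WT peaks fall between ZT 4.43 and ZT 11.9, and the KO wave of Cyp1b1 is the flattest beside its WT wave, at 0.09 against 0.34.

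In the KO, 21 members had an unadjusted limma p under 0.05 for a rhythm, against 12.7% of all genes. Another 6 members had a called rhythm there, against 1.89% of all genes, and 0 members were called in both genotypes. Of the 6, 4 were carboxylesterases: Ces2g (amplitude 0.32 ± 0.05, peak ZT 6.63, adjusted p = 0.00907), Ces1f (0.47 ± 0.08, ZT 7.87, adjusted p = 0.012), Ces1e (0.25 ± 0.04, ZT 6.67, adjusted p = 0.0128) and Ces2e (0.46 ± 0.09, ZT 7.41, adjusted p = 0.0212). Cyp2e1 had the widest wave, 0.63 ± 0.12 with a peak at ZT 8.19 (adjusted p = 0.0154). Cyp2d26 ran opposite to these, with a peak at ZT 20.9 (0.24 ± 0.05, adjusted p = 0.0436). The WT amplitudes of the same genes were 0.08 for Ces2g, 0.08 for Ces1f, 0.09 for Ces1e, 0.27 for Ces2e, 0.20 for Cyp2e1 and 0.15 for Cyp2d26, none of them called. A further 3 wide KO waves, Fmo5 (0.46), Cyp2d9 (0.39) and Ces2b (0.33), were not called.

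The test of the difference between the rhythms called 0 of 47 members in limma, against 0.0385% of all genes. At an unadjusted p under 0.05 it took in 9 members, against 7.32% of all genes. A rhythm called in the KO and not in the WT is thus not shown to differ between the genotypes for any of these genes.

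The calls of a KO rhythm were lost without the KO ZT20 pools, a step that also leaves the KO without that time. Ces1f read 11.94, 12.10, 12.00 and 12.06 in the KO pools of ZT8 and ZT12 and 11.06 and 10.78 at ZT20, where the WT pools read 11.94 and 12.01. Without both KO ZT20 pools, 0 members had a called KO rhythm, although 14 had an unadjusted limma p under 0.05, and the amplitudes became 0.19 for Ces1f, 0.18 for Ces1e, 0.21 for Ces2e, 0.25 for Ces2g, 0.30 for Cyp2e1 and 0.20 for Cyp2d26. Over all genes that fit called 12 KO rhythms in place of 294. The share of all genes at an unadjusted p under 0.05 in that fit was not counted. Leaving out only the first KO ZT20 pool left 0 member calls (114 over all genes). Leaving out only the second left 1, Ces2g (60 over all genes). Leaving out the second KO pool of ZT0 raised the member count to 11 and that of all genes to 438.

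**Figure D4:**
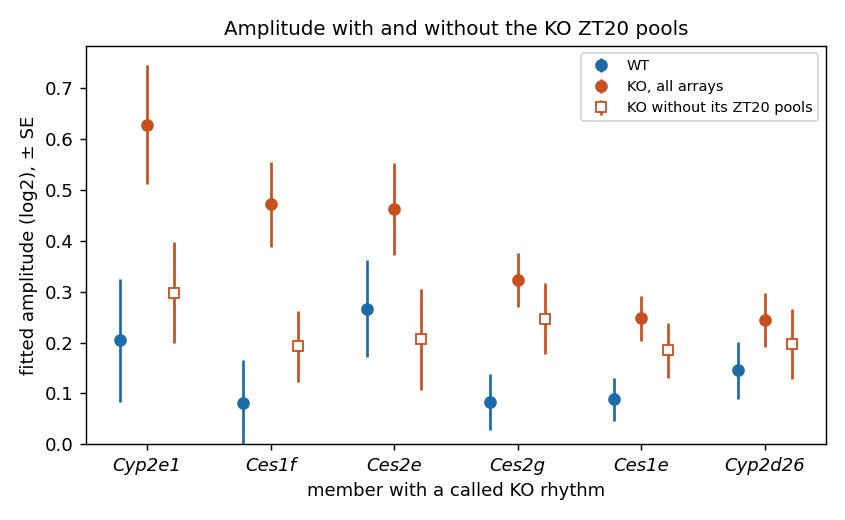
Fitted amplitude (log2, mean to peak, with its SE) of the 6 enzymes with a called KO rhythm, in the WT, in the KO with all arrays, and in the KO without its 2 pools at ZT20. For Cyp2e1 the KO amplitude drops from 0.63 to 0.30 without those pools, and for Ces1f from 0.47 to 0.19.

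Compared time by time, 7 of 47 members differed between the genotypes at 1 or more times, against 1.35% of all genes, and all 7 did so at ZT20, where 1.27% of all genes were called. Lower in the KO at ZT20 were Cyp2e1 (-1.48 ± 0.24, adjusted p = 0.00802), Ces1d (-1.36 ± 0.22, adjusted p = 0.00677), Ces2b (-1.12 ± 0.19, adjusted p = 0.0103), Ces1f (-1.06 ± 0.14, adjusted p = 0.00278) and Ces2e (-0.78 ± 0.17, adjusted p = 0.0324). Higher were Cyp2d26 (0.63 ± 0.13, adjusted p = 0.0338) and Gstm7 (0.59 ± 0.12, adjusted p = 0.0248). At ZT20, 23 members had an unadjusted limma p under 0.05. The count was 7 (ZT0), 4 (ZT4), 2 (ZT8), 5 (ZT12) and 9 (ZT16) at the other times, where 0 were called. Of all 15589 genes, 2750 passed the same cut at ZT20, against 647 (ZT0), 570 (ZT4), 900 (ZT8), 1056 (ZT12) and 1019 (ZT16). Both KO ZT20 pools were lower than all other KO arrays for 8 members and higher than all others for 2. The share of all genes with such a pattern was not counted, so these counts are not shown to be particular to the members. The count of 7 fell to 0 without the second WT pool of ZT20, to 3 without the first KO pool and to 1 without the second.

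Regulators and partners of these enzymes were read from lists of known genes. The PAR bZIP factors Dbp and Tef were lower in the KO by differences of -0.86 ± 0.22 (adjusted p = 0.0178) and -0.41 ± 0.08 (adjusted p = 0.00175), and Hlf stood at -0.14 ± 0.06 (not called). Nr1i2, the pregnane X receptor, was higher by 0.22 ± 0.05 (adjusted p = 0.00953). The Ah receptor Ahr (0.02 ± 0.03), the receptor Nr1i3 (-0.09 ± 0.06) and Nfe2l2, which encodes Nrf2 (0.09 ± 0.04), were not called. Of 13 such regulators tested, 1 was higher and 2 lower, and 5 had a called WT rhythm (Dbp, Tef, Hlf, Nr1h4 and Ppara) and 1 a called KO rhythm (Tef).

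Alas1, the first enzyme of haem synthesis, was lower by a difference of -0.28 ± 0.06 (adjusted p = 0.00304) and had a called rhythm in both genotypes. Por, the reductase of the P450 enzymes, was not among the genes tested. Of 12 P450 partners and haem enzymes, 1 was higher (Pgrmc1, 0.15) and 3 lower (Alas1, Cpox at -0.25 and Hmox1 at -0.32). Of 10 genes that supply cofactors, 0 differed in limma (4 at an unadjusted p under 0.05). Of 13 other conjugating enzymes, Mgst1 was higher (0.33) and Glyat and Inmt lower (-0.18 and -0.37). Of 17 other phase I enzymes, Cbr1, Maoa and Nqo1 were higher (0.58, 0.31 and 0.27) and Adh1 and Aldh3a2 lower (-0.43 and -0.20). Of 8 Nrf2 targets, Nqo1 was higher and Hmox1 lower. Apart from the cofactor list, each of these lists held genes called higher and genes called lower. The median differences were -0.07 for the regulators, -0.05 for the P450 partners and 0.04 for the other phase I enzymes.

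Markers of cell types and of sex-dependent kidney genes were read beside these results. Levels of a list were summed on the linear scale and are given as log2, so the brightest probe sets weigh most. For 10 proximal tubule markers the sum was 15.63 to 15.69 in the WT and 15.63 to 15.76 in the KO. It was 15.63 and 15.63 in the KO ZT20 pools. Of the 10, 2 were called higher (Slc5a2 at 0.20 and Slc5a12 at 0.24) and 1 lower (Slc22a6 at -0.28). Slc22a6 also had a called KO rhythm. Of 11 tested genes known to differ between male and female kidney, 8 were lower in the KO, among them Cyp4a12a (-1.93 ± 0.33) and Slco1a1 (-1.63 ± 0.35), and 1 was higher, Cyp4a14 (1.32 ± 0.25). Azgp1 (-0.84 ± 0.30) and Kap (-0.04 ± 0.03) were not called. The list was not split by the sex with the higher level. The summed level of the 11 genes was 14.90 to 15.28 in the WT and 14.29 to 15.11 in the KO, with 14.48 and 14.29 in the KO ZT20 pools. Of the 11, 6 had a called KO rhythm. The 8 members with both KO ZT20 pools below all other KO arrays were Ces1f, Ces2b, Ces2e, Ces2g, Cyp2e1, Cyp4f13, Fmo1 and Fmo5. The 2 with both above were Cyp2d22 and Gsta4. The part of the sex-dependent list in the members' differences was not tested. The liver markers Alb and F2 were lower (-0.97 and -0.31), Ttr was higher (0.41), and 2 of the 5 tested were not called. Alb lies within 20 Mb of Clock, where the limit given for Sult1d1 and Sult1b1 holds too. The summed level of the proliferation markers was highest in the second KO ZT20 pool, at 9.05, against 7.05 to 8.26 in the WT. The first KO ZT20 pool read 7.49, inside the WT range, and 0 of the 3 tested markers were called higher or lower. Of 5 endothelial markers, 3 were higher in the KO, and of 4 distal convoluted tubule markers, 3 were higher. The part of these lists in the members' differences was not tested either.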

How the data were processed

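Total RNA of pooled mouse kidneys was hybridised to 22 Affymetrix whole-transcript arrays. RMA, named in the submitters' processing notes, gave the log2 values that the authors deposited for each probe set. Its quantile step removes a shift shared by most genes, and its background step compresses low values. Its version and the build were not given in the sources used here. The platform annotation names 1 gene for 21789 of 35556 probe sets, several for 1621, and does not list 12146; 21698 of the first matched the RefSeq table of GRCm38.p6 by gene number. Each gene was read from its brightest such probe set, and 15589 genes with a mean of at least 4.67 (the 30th percentile of all probe sets) were tested. Models were fitted with limma 3.58.1 in R 4.3.3 (mean, cosine and sine of 24 h per genotype, and 12 group means for single times). The wave fit was also run on simulated data with independent noise for each array. Those data hold no shared pool effect, so they cannot show how far the results depend on single pools. Named with values were all called members, the brightest of each family, the widest amplitudes and those at the floor. The members and lists were chosen with earlier results of these data known. Promoter sequences are RefSeq's. Pool numbers were not taken as pairs in the main fit, since the labels give them no shared origin. Deviations of same-numbered pools correlated above 0.1 in 22 of 45 pairs of groups (-0.43 to 0.54, median 0.09). That check does not settle whether same-numbered pools share an origin or a batch, so a block on pool number was fitted as an alternative. Alternatives covered the filter, normalization, pool number, array weights and left-out arrays. Precision is limited by the number of arrays.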

Additional observations from a re-analysis of the deposited data

How the results depend on the processing

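The counts of called members were 7 higher, 7 lower, 6 with a WT rhythm, 6 with a KO rhythm and 0 differences of rhythm. They stayed within 1.5 times under other filters, every probe set tested alone, quantile normalization repeated, subtraction of array medians and moderated variance with trend. The same held under the replicate block on pool number (7 higher, 7 lower, 8 WT and 8 KO rhythms). That block lost Cyp2d9 (limma adjusted p = 0.0524). Over all genes it raised WT rhythms from 804 to 1101 and KO rhythms from 294 to 361. The count of 7 members with a difference at some time was refitted only under that block and with single arrays left out. Within the first pools alone, 4 members were higher, 3 lower and 0 rhythmic in either genotype. Over all genes that fit called 271 higher, 240 lower, 53 WT rhythms and 0 KO rhythms. Within the second pools alone, 0 members were higher, 1 lower and 0 rhythmic, with 8 higher and 5 lower at an unadjusted limma p under 0.05. Over all genes the fit of the second pools called 0 higher, 1 lower, 6 WT rhythms and 0 KO rhythms. The 12 group means gave 0 WT and 3 KO rhythms (8 and 12 at an unadjusted p under 0.05), against 116 and 46 called over all genes. Array weights gave 11 KO rhythms, against 590 over all genes. Without both KO ZT20 pools, 4 were lower and 0 had a KO rhythm; without the ZT20 pools of both genotypes, 4 were higher, 4 lower and 0 had a KO rhythm (12 at an unadjusted p under 0.05). At an adjusted p under 0.01, 4 were higher, 4 lower, and 1 was rhythmic in each genotype. Leaving out 1 array at a time gave 5 to 8 higher, 4 to 9 lower, 3 to 7 WT rhythms, 0 to 11 KO rhythms, 0 differences of rhythm and 0 to 8 members at some time. The lower count was 4 without the first WT ZT4, the second WT ZT12 or either KO ZT20 pool. Of 936 values of called members under these settings, 749 stayed on their side of the threshold, 187 lost the call and 0 reversed sign. An amplitude is never negative, so only a difference of the cycle means could reverse. The cause of the lost calls was not tested. With 1 or 2 pools per time, a wave of small amplitude or a difference at 1 time may be missed.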
